A study of Mus musculus with 15 samples.

Results

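The 34 genes described here carry dietary lipid through the enterocyte, the absorptive cell of the intestine, and were taken out of 43629 genes measured in mouse small-intestinal organoids. They were chosen by name for their known place in the pathway, at a time when earlier results of these data were known. By role they comprise 12 genes for apolipoproteins and chylomicron assembly, 10 for uptake and intracellular carriage of fatty acids and sterols, 5 for esterification and 7 for lipid droplets and lipolysis. Organoids, which are epithelial cultures grown in gel from isolated crypts, were derived from the proximal small intestine of C57B6/129 mice, and polyA RNA was sequenced. The WT group held 5 libraries, of which 4 came from APC flox/flox organoids (numbered 1, 2, 5 and 6) and 1 from dox naive organoids, a line that carries a doxycycline-inducible CRISPR system and had not been treated with doxycycline. The Apc group held 4 libraries, Apc delta/delta organoids numbered 1, 2, 5 and 6, in which both copies of the tumour suppressor Apc had been recombined. The P-Rspo3 group held 4 libraries (EN15d, EN4d, EN_M and EN_F) from inducible lines in which doxycycline-driven CRISPR editing joined Ptprk to Rspo3, a gene for a secreted enhancer of Wnt signalling. These P-Rspo3 cultures were mixed populations obtained by growth without RSPO1 and not single clones. All WT libraries were grown in ENR medium (EGF, Noggin and RSPO1), whereas all Apc and P-Rspo3 libraries were grown in EN medium, which lacks RSPO1. Genotype and medium therefore cannot be told apart in either comparison with WT, but the medium was shared between Apc and P-Rspo3. The lines differed as well. All P-Rspo3 libraries came from inducible lines, as did only 1 of the 5 WT libraries, the dox naive one, and no Apc library was labelled so. Genotype and line cannot be fully told apart in P-Rspo3 against WT or in Apc against P-Rspo3. Another 2 libraries, LIPO and NAIVE_F, were placed in no group because their titles and genotype labels could not be reconciled.

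Fatty acids, monoacylglycerol and cholesterol released by digestion enter the enterocyte at its brush border through transporters such as CD36 and NPC1L1. There they are bound by fatty acid-binding proteins and re-esterified to triglyceride and cholesteryl ester by enzymes such as MOGAT2, the DGATs and SOAT2. Microsomal triglyceride transfer protein loads this lipid onto apolipoprotein B in the endoplasmic reticulum, and the particle gains other apolipoproteins and leaves in COPII vesicles as a chylomicron, while surplus lipid is held in cytoplasmic droplets.

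The 13 grouped libraries held 28902729 to 35528495 counts each. The count of Rspo3 was 539 to 1079 per P-Rspo3 library, 7 to 57 per Apc library and 0 to 1 per WT library. Counts of the whole Apc gene (4046 to 6810 in WT, 9265 to 10953 in Apc) could not check the deletion, since they do not separate the deleted part. In WT the 8 enterocyte markers that are no members (Sis, Alpi and others) summed to 1520 to 2575 FPKM (fragments scaled to transcript length and library size), the unit in which all levels are given here. Nothing in the labels says whether libraries of a group came from separate cultures or animals, so p-values measure the spread between these libraries, which may be partly technical. In such bulk samples, fewer cells of a type and less RNA per cell cannot be told apart.

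In WT organoids, 2 of the 34 members were among the 100 genes with the highest mean FPKM. Fabp1, encoding liver fatty acid-binding protein, had the highest level of the 34, at 2864 ± 1241 FPKM (SD, n = 5), and ranked 16 among all genes. Apoa4, an apolipoprotein made by enterocytes when they secrete chylomicrons, followed at 942 ± 448 FPKM, and P4hb, the protein disulphide isomerase that is also the partner subunit of MTTP, stood at 764 ± 128 FPKM. Mean WT levels reached 100 FPKM in 14 members and 10 FPKM in 29. At the low end, Mgll (monoacylglycerol lipase) was at 0.348 ± 0.0881 FPKM, and Fabp6, the ileal bile acid-binding protein, was at 0.209 ± 0.149 FPKM with at most 5 counts. Apoa5, best known as a liver apolipoprotein, was at or near 0 in every library, with no more than 0.0627 FPKM. The order was gradual, since the WT ranges of 31 of the 33 neighbouring pairs overlapped. The exceptions were Slc27a4 above Gpat3 and Cd36 above Mgll.

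**Figure D1:**
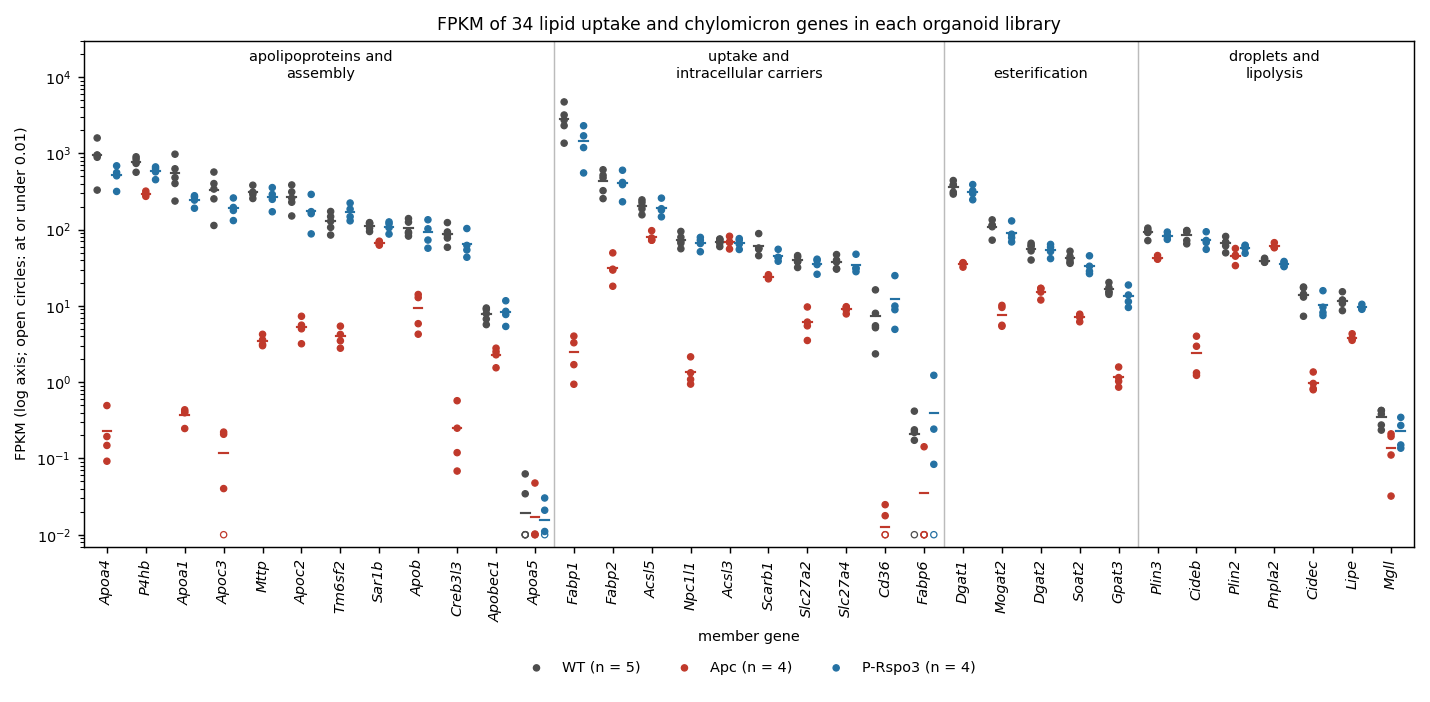
FPKM (log axis) of the 34 members in each of the 13 grouped libraries, with members grouped by role and ordered by WT mean within it; each point is 1 library coloured by group, each dash a group mean, and open circles are values at or under 0.01. WT and P-Rspo3 points overlap for every member (Fabp1 reaches 4730 in WT and 2303 in P-Rspo3), whereas Apc points lie far below them for Fabp1, Apoa4, Apoa1 and Apoc3 and overlap them for Acsl3 and Plin2.

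The WT libraries differed in a shared way. Over the 34 members, library 5 gave the highest WT value for 24 and library 6 the lowest for 26. The 8 enterocyte markers that are no members had the same extremes, with summed FPKM of 2575 in library 5 and 1520 in library 6. The pattern was thus not particular to the members, and its share over all genes was not counted. The coefficient of variation over the 5 WT libraries ran from 5.37% to 71.2% among the 32 members with more than 3 counts in every one of them, with a median of 19.9%. Pnpla2, adipose triglyceride lipase, was the steadiest, with 37.3, 39.0, 42.1, 40.9 and 37.5 FPKM in libraries 1, 2, 5 and 6 and dox naive, the order used for WT values from here on. Cd36, the scavenger receptor for long-chain fatty acids, varied most, with 2.35, 5.49, 8.0, 5.17 and 16.2 FPKM. The dox naive library was highest for Cd36 and library 1 lowest. Among P-Rspo3 libraries, EN_F was highest for 23 and EN15d lowest for 24 of 33 members compared.

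Loss of Apc went with lower RNA of most of the pathway. Of the 34 members, 33 passed the filter on low values (0.1 FPKM reached in 4 or more of the compared libraries) and 29 were called lower in Apc than in WT by edgeR's quasi-likelihood test, with thresholds of 0.05 for the adjusted p and 1 for the size of the log2 fold change. Across all 16749 genes tested, 14.1% were called lower. None of the members was called higher, against 12.2% of all genes. The filter could be passed through the WT libraries alone, as by Apoc3 and Cd36, and Apoa5 did not pass it. The median log2 fold change of the 33 was -3.70, beside 0.00 over all genes tested. FPKM values did not overlap between the groups, with Apc lower, for 29 members (16.6% of all genes), and did not overlap with Apc higher for 1, Pnpla2 (37.9% of all genes). By role, 11 of 12 assembly genes, 8 of 10 uptake genes, 5 of 5 esterification genes and 5 of 7 droplet genes were called lower.

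**Figure D2:**
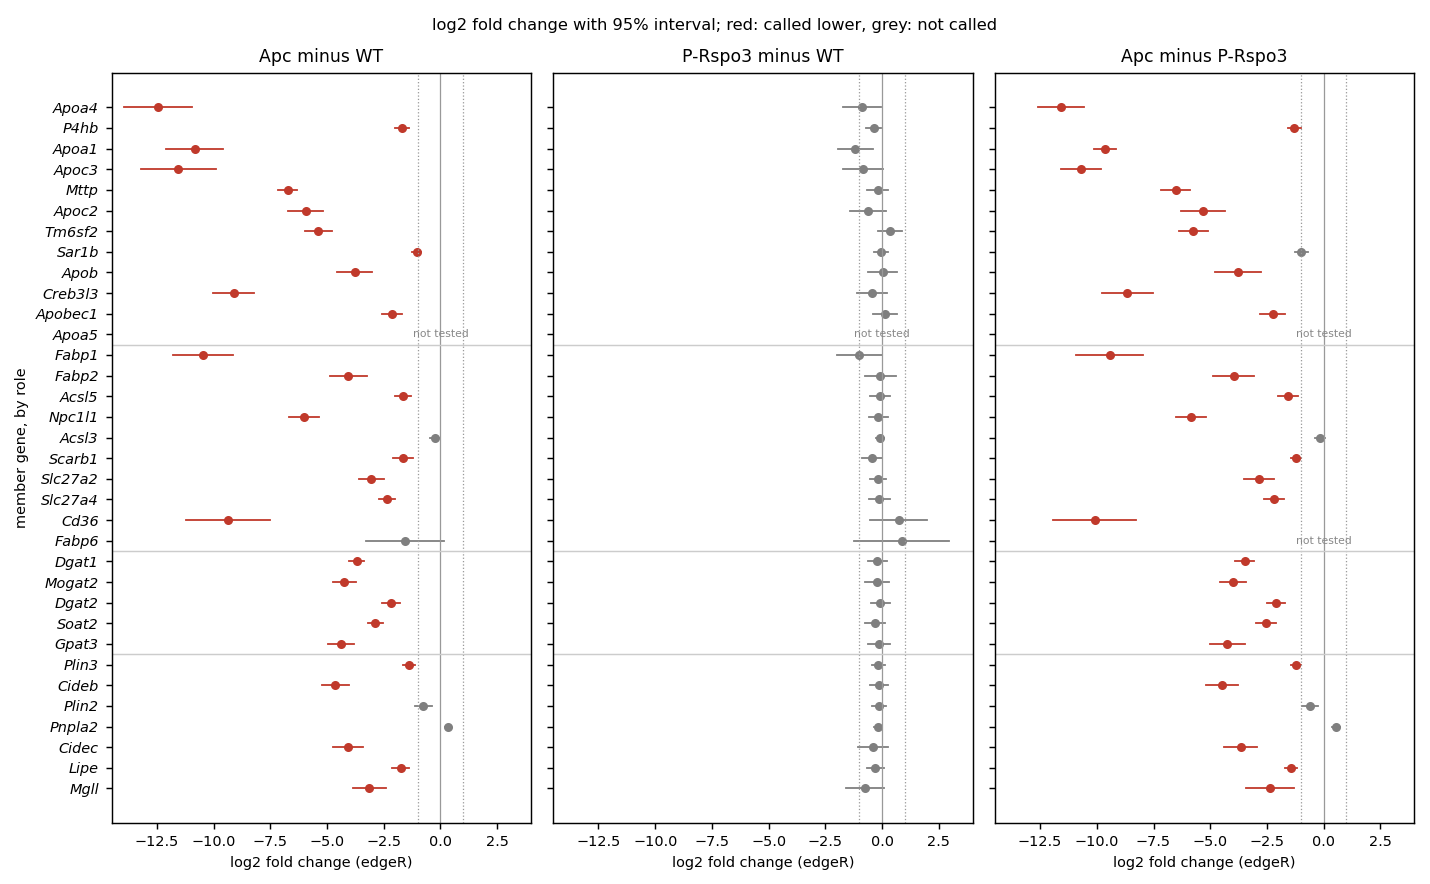
Fitted log2 fold change of each member with its 95% interval (edgeR) in Apc minus WT, P-Rspo3 minus WT and Apc minus P-Rspo3, members grouped by role; red marks members called lower, grey those not called, and dotted lines the fold threshold. Differences with Apc as the first group run down to -12.46 for Apoa4, while those of P-Rspo3 minus WT lie between -1.19 and 0.86.

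The apolipoproteins carried the largest differences. Apoa4 stood at 952, 946, 1593, 330 and 889 FPKM in WT, at 0.0920, 0.493, 0.194 and 0.148 in Apc libraries 1, 2, 5 and 6, and at 317, 508, 687 and 560 in P-Rspo3 EN15d, EN4d, EN_M and EN_F, an order kept below. No Apc library reached 1 FPKM, and the WT and P-Rspo3 ranges overlapped. The log2 fold change in Apc against WT was -12.46 (SE 0.68, adjusted p = 1.33e-07 by edgeR's quasi-likelihood test). Apoa1, the main protein of high-density lipoprotein and also a part of chylomicrons, was at 482, 628, 976, 237 and 403 FPKM in WT, 0.247, 0.413, 0.397 and 0.434 in Apc and 278, 191, 268 and 244 in P-Rspo3. Its log2 fold change in Apc was -10.84 (SE 0.57, adjusted p = 1.13e-07 by edgeR). Apoc3, an inhibitor of lipoprotein lipase, was at 341, 402, 569, 113 and 253 FPKM in WT and at 132, 196, 260 and 178 in P-Rspo3. Its Apc libraries held 0 to 3 counts, so that the level was at least 2110-fold lower than the WT mean, taking 3 counts per library as the floor. Without WT library 5 this bound was 1710-fold. Apoc2, the activator of the same lipase, had a log2 fold change of -5.94 (SE 0.34, adjusted p = 1.97e-07 by edgeR), from 267 ± 88.1 FPKM in WT to 5.28 ± 1.70 in Apc.

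Apoa1, Apoc3, Apoa4 and Apoa5 lie side by side within 43.3 kb of chromosome 9 (GRCm38, chr9:46228580-46271919), and the first 3 of them had the 3 largest fitted decreases of all members in Apc. Apoc2 lies in a second cluster on chromosome 7 (chr7:19671579-19699188) with Apoc4, Apoc1 and Apoe. Antisense or overlapping gene models cover part of Apoa4 and Apoc2, and with the strand setting of the counting not given in the sources used here, reads of such pairs cannot be told apart. The same limit applies to other members, among them Mttp, Acsl3, Acsl5 and Cideb, each of which overlaps another protein-coding gene.

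Apob, the structural protein of the particle, had a smaller fitted decrease than Apoa4, Apoa1, Apoc3 or Apoc2, a difference that was not tested. It was at 82.3, 92.9, 140, 89.3 and 125 FPKM in WT and at 5.85, 4.26, 14.1 and 12.9 in Apc. In P-Rspo3 it was at 57.1, 103, 73.1 and 135 FPKM, across the WT range. The Apc values were all below WT, with a log2 fold change of -3.78 (SE 0.34, adjusted p = 4.83e-06 by edgeR's quasi-likelihood test). Mttp, the lipid transfer subunit, went from 307, 289, 382, 256 and 309 FPKM in WT to 3.01, 4.24, 3.13 and 3.59 in Apc, and was at 172, 290, 250 and 356 in P-Rspo3. Its libraries agreed closely within both WT and Apc, and its log2 fold change of -6.73 (SE 0.19) had the smallest adjusted p of the members, 2.89e-09 by edgeR. The partner subunit P4hb, which serves protein folding in general, kept 296 ± 19.4 FPKM in Apc (SD, n = 4), a log2 fold change of -1.70 (SE 0.13). P4hb was thereby the most abundant member in Apc.

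Creb3l3, a transcription factor of the endoplasmic reticulum membrane that acts on apolipoprotein genes, was at 77.7, 84.5, 124, 58.7 and 93.2 FPKM in WT, at 0.0683, 0.249, 0.119 and 0.572 in Apc and at 43.5, 62.2, 54.2 and 103 in P-Rspo3. The Apc libraries were all below 1 FPKM, with a log2 fold change of -9.12 (SE 0.41, adjusted p = 3.80e-08 by edgeR). Tm6sf2, needed for lipidation of the particle, had a log2 fold change of -5.39 (SE 0.27, adjusted p = 8.27e-08 by edgeR), from 128 ± 34.4 to 3.98 ± 1.13 FPKM. Apobec1, the enzyme that edits Apob RNA, had a log2 fold change of -2.14. Sar1b, the small GTPase that builds the COPII coat for chylomicron exit, had the smallest decrease of the 11 (-1.05, SE 0.10), one that was not called by limma on FPKM (-0.76 and -0.75), from 119, 104, 122, 94.5 and 124 FPKM in WT to 62.6, 64.0, 70.6 and 68.7 in Apc. In P-Rspo3 Sar1b was at 87.5, 106, 126 and 119 FPKM, and it had 66.5 ± 3.78 FPKM in Apc.

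Among genes of uptake and carriage, Fabp1 and Cd36 were the most affected. Fabp1 was at 2734, 2312, 4730, 1361 and 3186 FPKM in WT, at 0.939, 4.02, 1.70 and 3.29 in Apc and at 554, 1191, 1699 and 2303 in P-Rspo3. The Apc values lay far below both other groups, which overlapped, and the log2 fold change in Apc against WT was -10.46 (SE 0.59, adjusted p = 1.77e-07 by edgeR). Fabp2, the intestinal paralogue, was at 516, 324, 477, 255 and 610 FPKM in WT, 49.6, 30.3, 29.5 and 18.1 in Apc and 232, 389, 416 and 601 in P-Rspo3. Fabp2 kept at least 18.1 FPKM in every Apc library, and its log2 fold change was -4.06 (SE 0.36). Cd36 had 0 to 3 counts in the Apc libraries, at least 358-fold lower than WT (252-fold without the dox naive library), and was at 4.93, 8.92, 9.96 and 24.9 FPKM in P-Rspo3.

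Npc1l1, the intestinal cholesterol importer, was at 66.5, 79.7, 94.8, 56.2 and 70.8 FPKM in WT, 0.943, 1.09, 1.33 and 2.15 in Apc and 72.6, 65.7, 51.3 and 79.2 in P-Rspo3. No Apc library came near the other groups, with a log2 fold change of -6.03 (SE 0.30, adjusted p = 7.14e-08 by edgeR). Scarb1, the high-density lipoprotein receptor, was less changed (-1.66). The fatty acid transport proteins Slc27a2 and Slc27a4 had log2 fold changes of -3.04 and -2.34, and Acsl5, a long-chain acyl-CoA synthetase of enterocytes, one of -1.66 from 204 ± 34.8 to 80.1 ± 11.5 FPKM. Acsl3, the synthetase of nascent lipid droplets, had overlapping levels of 59.9, 75.6, 74.0, 72.8 and 66.4 FPKM in WT and 81.9, 69.2, 55.8 and 67.9 in Apc. Its log2 fold change of -0.26 (SE 0.08, adjusted p = 0.0174 by edgeR) stayed under the fold threshold. Fabp6 had at most 3 counts in any Apc library and was not called (adjusted p = 0.11 by edgeR).

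All 5 esterification genes were called lower. Dgat1, which adds the last fatty acid to triglyceride, was at 381, 310, 441, 293 and 389 FPKM in WT, 36.4, 32.2, 36.9 and 35.9 in Apc and 246, 324, 297 and 390 in P-Rspo3. The 4 Apc libraries lay within 5 FPKM of one another and all below WT, with a log2 fold change of -3.70 (SE 0.14, adjusted p = 1.66e-08 by edgeR). Mogat2, the monoacylglycerol acyltransferase that starts resynthesis in the gut, went from 115, 114, 134, 72.8 and 109 FPKM in WT to 5.41, 10.2, 5.57 and 9.56 in Apc, a log2 fold change of -4.25 (SE 0.23). Gpat3, of the glycerol phosphate route, had a log2 fold change of -4.38 (SE 0.26), Soat2, the enterocyte sterol acyltransferase, one of -2.87 (SE 0.15) and Dgat2 one of -2.19 (SE 0.17). Dgat2 and Mogat2 are neighbours on chromosome 7 (chr7:99153658-99238619), and both moved down by different amounts.

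The droplet and lipolysis genes were the most mixed role. Cideb, a lipid transfer protein of the droplet and of chylomicron loading, was at 96.1, 72.2, 97.5, 65.1 and 92.6 FPKM in WT, 1.32, 1.23, 2.96 and 4.01 in Apc and 55.2, 72.1, 67.9 and 93.9 in P-Rspo3. Apc was far below both, with a log2 fold change of -4.63 (SE 0.28, adjusted p = 2.52e-07 by edgeR). Its relative Cidec had a log2 fold change of -4.07, Lipe (hormone-sensitive lipase) one of -1.75, the droplet coat protein Plin3 one of -1.40, and Mgll one of -3.13 with 5 to 9 counts per Apc library. The Mgll call was lost when FPKM values were tested with limma (-0.97 with a pseudocount of 0.1 and -0.25 with 1). Plin2, the coat protein that marks lipid-filled droplets, was at 68.5, 61.2, 81.5, 49.7 and 68.4 FPKM in WT and 33.8, 46.2, 56.6 and 44.9 in Apc. These ranges overlapped, and the log2 fold change of -0.75 (SE 0.17, adjusted p = 0.00252 by edgeR) passed the p threshold without the fold threshold. Pnpla2 was the only member tested that had a positive log2 fold change in Apc, with 59.4, 57.8, 67.5 and 59.0 FPKM there. Every Apc value lay above every WT value, but the log2 fold change of 0.33 (SE 0.06, adjusted p = 0.000903 by edgeR) was under the fold threshold.

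The stretches before the transcription starts of 7 members are shown. Fabp1, Cideb, Apob and Fabp2 were called lower in Apc and hold matches to the motifs searched, Creb3l3 and Npc1l1 were called lower and hold none, and Pnpla2 was not called and holds none. They are RefSeq sequences on GRCm38.p6, 5′ to 3′ on the strand of the gene, at chr6:71199629-71199856 (+) for Fabp1, chr14:55758429-55758674 (-) for Cideb, chr10:81098873-81099122 (-) for Creb3l3, chr11:6230246-6230495 (-) for Npc1l1, chr12:7977427-7977676 (+) for Apob, chr3:122894822-122895071 (+) for Fabp2 and chr7:141454938-141455187 (+) for Pnpla2. Capitals mark matches, on either strand, to 4 motifs. HNF4, GATA and CDX factors are known to act on intestinal genes, whereas the TATA box is a general promoter element. Part of an HNF4 site was searched as the letters AAAGTCC. A site of GATA factors was searched as GATAAG. A CDX site was searched as TTTATNG, with N any base. The TATA box was searched as TATAAA.
Fabp1: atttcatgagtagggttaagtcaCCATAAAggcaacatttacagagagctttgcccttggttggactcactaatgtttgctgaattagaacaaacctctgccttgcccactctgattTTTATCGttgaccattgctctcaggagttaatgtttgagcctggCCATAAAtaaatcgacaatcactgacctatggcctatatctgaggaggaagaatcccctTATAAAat
Cideb: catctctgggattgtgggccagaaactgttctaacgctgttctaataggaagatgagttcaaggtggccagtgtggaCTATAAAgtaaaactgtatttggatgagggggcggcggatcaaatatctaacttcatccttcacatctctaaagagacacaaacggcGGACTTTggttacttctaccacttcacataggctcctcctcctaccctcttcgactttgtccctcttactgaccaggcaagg
Apob: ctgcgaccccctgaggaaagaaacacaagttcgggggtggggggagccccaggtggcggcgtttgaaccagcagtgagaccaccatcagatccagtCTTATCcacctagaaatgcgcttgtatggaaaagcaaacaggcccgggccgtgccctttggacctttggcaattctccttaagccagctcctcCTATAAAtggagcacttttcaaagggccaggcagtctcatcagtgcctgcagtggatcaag
Fabp2: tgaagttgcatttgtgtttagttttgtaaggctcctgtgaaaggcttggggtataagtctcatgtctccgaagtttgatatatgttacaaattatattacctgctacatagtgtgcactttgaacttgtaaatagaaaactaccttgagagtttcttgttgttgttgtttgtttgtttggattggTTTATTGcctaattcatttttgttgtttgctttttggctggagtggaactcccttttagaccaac
Creb3l3: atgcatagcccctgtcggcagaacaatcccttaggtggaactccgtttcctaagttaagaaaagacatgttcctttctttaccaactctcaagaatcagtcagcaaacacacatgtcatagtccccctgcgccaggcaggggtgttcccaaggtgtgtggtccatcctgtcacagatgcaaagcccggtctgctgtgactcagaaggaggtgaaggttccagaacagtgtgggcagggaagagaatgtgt
Npc1l1: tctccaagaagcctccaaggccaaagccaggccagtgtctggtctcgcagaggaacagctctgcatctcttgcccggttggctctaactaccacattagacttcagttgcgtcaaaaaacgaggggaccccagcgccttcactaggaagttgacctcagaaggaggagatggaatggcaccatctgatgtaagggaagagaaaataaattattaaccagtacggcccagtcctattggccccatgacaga
Pnpla2: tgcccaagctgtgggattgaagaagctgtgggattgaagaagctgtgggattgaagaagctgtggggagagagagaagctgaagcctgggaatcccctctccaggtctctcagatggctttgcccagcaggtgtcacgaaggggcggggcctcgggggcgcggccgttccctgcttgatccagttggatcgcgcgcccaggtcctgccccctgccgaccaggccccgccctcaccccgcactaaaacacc
Distances are given to the RefSeq start. The Fabp1 stretch held the TATA letters 30 to 25 bases before it and CDX letters at 3 places, while Creb3l3, Npc1l1 and Pnpla2 held none of the 4 motifs. The last 52 bases of the full Fabp1 window, the TATA letters among them, lay inside the GENCODE gene. The windows of Apoa4, Apoa1, Cd36 and Mttp, members with larger decreases than most of those shown, held none either. However, the Cd36 and Mttp windows lay wholly inside the GENCODE gene, as did 148 of the 250 bases of the Apoa4 window. These windows are therefore not like the stretches shown, and stretches before the GENCODE starts of Cd36 and Mttp were not searched. Fabp2 held CDX letters at 65 to 59 bases before its start. Cideb held HNF4 letters at 86 to 80, and Apob held GATA letters at 154 to 149; in both, the TATA letters overlapped a CDX match on the opposite strand. RefSeq windows were matched for 27 members (32 windows). None was found for Scarb1, Tm6sf2, Apoc3, Dgat2, Soat2, Mogat2 and Dgat1, which were therefore not searched. CDX letters were in 18.8% of member windows and 9.81% of all 32851 windows, and TATA letters in 21.9% and 12.4%. HNF4 letters were in 3.12% of member windows and 3.58% of all, and GATA letters in 3.12% and 6.55%. Any of the 4 was in 31.2% of member windows and 25.4% of all windows. A match is only a run of letters, and nothing follows from it or from its absence about binding of a factor.

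Apc and P-Rspo3 organoids shared the RSPO1-free medium, so their comparison sets the 2 genotypes side by side without that difference. Genotype and line still cannot be told apart in it. Most of the pathway was lower in Apc here as well. Of 32 members tested (Apoa5 and Fabp6 did not pass the filter), 28 were called lower in Apc by edgeR's quasi-likelihood test, against 13.3% of all 16456 genes, and none higher, against 13.4%. The median log2 fold change was -3.57, beside 0.00 over all genes. FPKM values did not overlap, with Apc lower, for 28 members (17.5% of all genes) and with Apc higher for 1, Pnpla2 (38.0% of all genes).

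The members with the largest differences between Apc and P-Rspo3 were those with the largest differences between Apc and WT. Both comparisons used the same Apc libraries. Apoa4 had a log2 fold change of -11.56 (SE 0.45, adjusted p = 1.87e-07 by edgeR) and Apoa1 one of -9.64 (SE 0.21, adjusted p = 1.15e-08). Apoc3 was at least 1180-fold and Cd36 at least 595-fold lower in Apc, both with 0 to 3 counts per Apc library. The Cd36 bound rested on EN_F and was 378-fold without it, and the Apoc3 bound was 1050-fold without EN_M. Fabp1 (-9.44), Creb3l3 (-8.65), Mttp (-6.51), Npc1l1 (-5.86), Tm6sf2 (-5.74) and Apoc2 (-5.33) followed in size. Sar1b, at a log2 fold change of -0.99 (adjusted p = 0.000134 by edgeR), lay just outside the fold threshold. Plin2 at -0.60 (adjusted p = 0.00968) also passed the p threshold alone, and Acsl3 at -0.15 passed neither (adjusted p = 0.217). Pnpla2 was at 38.3, 32.7, 33.2 and 37.1 FPKM in P-Rspo3, below every Apc value, with a log2 fold change of 0.54 (adjusted p = 0.000424 by edgeR). Mgll was called lower (-2.37) although its FPKM ranges overlapped, and limma on FPKM called neither Mgll nor P4hb, Plin3 and Scarb1.

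In P-Rspo3 organoids the members' levels overlapped those of WT, with most estimates below 0. Of 33 members tested, none was called in either direction by edgeR's quasi-likelihood test, and the same 0 came from DESeq2 and limma. Only 0.00625% of the 15992 genes tested were called at all, so that the absence of calls does not show equal levels. Without adjustment, 5 members had p under 0.05, beside 13.5% of all genes. No member had FPKM ranges that did not overlap, beside 2.08% of all genes with P-Rspo3 lower and 2.06% with it higher. The median log2 fold change was -0.16, with 28 members below 0 and 5 above, beside 0.00 over all genes. Both this comparison and that of Apc with WT used the same WT libraries.

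The lowest estimates in P-Rspo3 belonged to Apoa1, Fabp1, Apoa4, Apoc3 (-0.83) and Mgll (-0.75), the last of low level. Apoc2 (-0.6), Creb3l3 (-0.45) and Scarb1 (-0.43) came next. Apoa1 averaged 245 ± 39.0 FPKM in P-Rspo3 (SD, n = 4) and 545 ± 279 in WT (SD, n = 5), with a log2 fold change of -1.19 (95% interval -1.96 to -0.42, adjusted p = 0.190 by edgeR). Of the P-Rspo3 libraries, 3 lay inside the WT range, whose lowest value was 237 FPKM in library 6, and EN4d lay below it. Fabp1 had a log2 fold change of -1.0 (interval -1.97 to -0.02, adjusted p = 0.357) and Apoa4 one of -0.88 (interval -1.74 to -0.03, adjusted p = 0.355). P4hb (-0.37) and Pnpla2 (-0.19) were the other 2 with an unadjusted p under 0.05. Narrower intervals around 0 were found for Acsl3 (-0.27 to 0.08) and Sar1b (-0.35 to 0.26).

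Members with a positive estimate in P-Rspo3 against WT were Fabp6 (0.86, interval -1.24 to 2.96), Cd36 (0.74, interval -0.51 to 1.99), Tm6sf2 (0.37), Apobec1 (0.13) and Apob (0.02). None of these log2 fold changes passed the test. Fabp6 rested on the single library EN15d, with 1.23 FPKM beside 0.0837, 0.242 and 0 in the other P-Rspo3 libraries. Cd36 rested largely on EN_F at 24.9 FPKM, and its WT values were as uneven. The esterification genes lay between -0.32 (Soat2) and -0.08 (Dgat2), and Dgat1 averaged 314 ± 59.9 FPKM in P-Rspo3 beside 363 ± 60.8 in WT.

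Summed over the 34 members, FPKM was 8276, 7580, 12220, 4707 and 8679 in WT, 843.6, 822.3, 814.3 and 856.9 in Apc, and 3579, 5192, 5984 and 7261 in P-Rspo3. The Apc libraries were close to one another and all below the other 2 groups, which overlapped. As a share of all FPKM this was 0.806% to 2.13% in WT, 0.142% to 0.159% in Apc and 0.622% to 1.25% in P-Rspo3. By role, the summed FPKM of uptake genes was 2021 to 5803 in WT, 203 to 268 in Apc and 1189 to 3454 in P-Rspo3, and that of droplet genes was 244 to 359, 140 to 174 and 234 to 308. Fabp1 alone gave 34.5% of the members' sum in WT, whereas P4hb gave 35.4% of it in Apc. The mean order in Apc was P4hb (296 FPKM), Acsl5 (80.1), Acsl3 (68.7), Sar1b (66.5), Pnpla2 (61.0) and Plin2 (45.4). Under 1 FPKM on average stood 9 members in Apc and 3 each in WT and P-Rspo3.

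**Figure D3:**
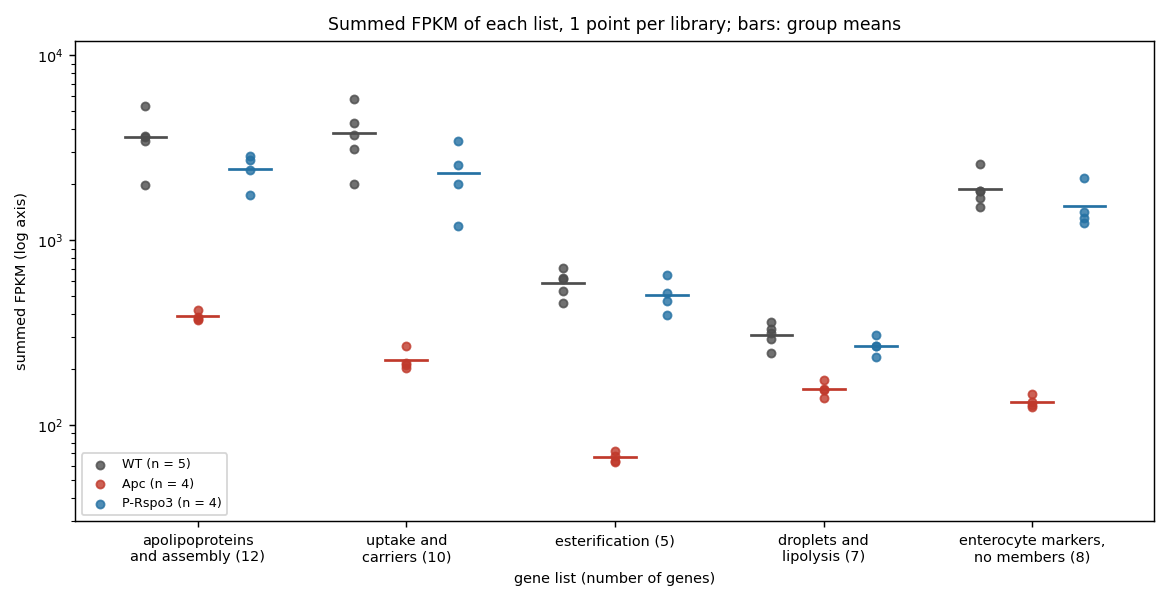
Summed FPKM (log axis) of the members of each role and of the 8 enterocyte markers that are not members, with 1 point per library coloured by group and bars at the group means. In all 5 lists the Apc libraries lie below every WT and P-Rspo3 library, for example at 203 to 268 against 2021 to 5803 in WT for uptake genes and at 140 to 174 against 244 to 359 for droplet genes.

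The enterocyte markers moved with the pathway. The 8 markers summed to 125 to 147 FPKM in Apc, 1520 to 2575 in WT and 1244 to 2158 in P-Rspo3, and 8 of 8 were called lower in Apc than in WT by edgeR, Sis (sucrase-isomaltase) with a log2 fold change of -9.91 and Vil1 (villin) with -1.26. Their part in the result for the members was not tested. The ratio of the members' sum to the markers' sum was 3.10 to 5.11 in WT, 5.54 to 6.66 in Apc and 2.70 to 4.81 in P-Rspo3, with all 4 Apc libraries above the WT range. In Apc this ratio rested largely on a few genes. P4hb gave 35.4% of the members' sum there, and Vil1 (91.9 FPKM) and Anpep (24.0 FPKM) gave most of the markers' mean sum of 134 FPKM. Goblet markers (4 of 4) and 3 of 4 Paneth, 3 of 4 enteroendocrine and 2 of 3 tuft markers were also called lower in Apc, with Mmp7 higher (1.74). Of the stem cell markers, Lgr5 (1.45), Ascl2 (1.54) and Smoc2 (1.21) were called higher and Olfm4 lower (-9.78). Adipocyte markers summed to 0 in WT and P-Rspo3 and to at most 0.0248 FPKM in Apc, with Adipoq and Lep at 0 throughout. Hepatocyte markers summed to 8.52 to 12.7 FPKM in WT, mostly Ttr, and to 0.421 to 1.47 in Apc. Leukocyte markers summed to at most 1.42 FPKM in WT and to 3.65 to 10.1 in Apc, nearly all from Cd68, with Ptprc, Cd3e and Cd79a each at or below 0.109 FPKM on average in both groups. Fibroblast markers summed to at most 0.0388 FPKM in WT and to 0.179 to 0.311 in Apc, with Pdgfra called higher in Apc (4.50), and among endothelial markers Tek was called higher (3.82), at 0.86 FPKM on average in Apc. The part of these cell types in the result was not tested. None of the enterocyte, stem, Paneth or goblet markers was called in P-Rspo3 against WT.

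Other genes of lipid handling that are not members moved less evenly in Apc. From 65 such genes, 64 were matched by symbol, 57 were tested, and 21 were called lower and 4 higher in Apc than in WT by edgeR, with a median log2 fold change of -0.68. Across all genes tested, 14.1% were called lower and 12.2% higher, with a median of 0.00. The 6 largest differences were decreases of G0s2 (-6.82), an inhibitor of Pnpla2, the nuclear receptors Ppara (-5.58), Nr1h3 (-4.83) and Hnf4g (-3.59), the secreted phospholipase relative Pla2g12b (-4.48) and the synthetase Acsl6 (-3.76). Called higher were Nceh1 (2.49), a cholesteryl ester hydrolase, Slc27a3 (1.86), Acsl4 (1.39) and Apoc4 (2.78, SE 0.67), the last with at most 29 counts in a library and next to Apoc2 on chromosome 7. Against P-Rspo3, 20 of 56 tested were called lower and 5 higher in Apc, beside 13.3% and 13.4% of all genes. In P-Rspo3 against WT none of 56 was called by edgeR, beside 0.00625% of all genes. An unadjusted p under 0.05 was found for 9 of them, beside 13.5% of all genes. DESeq2 called 1, Acsl6 (log2 fold change -1.19, adjusted p = 0.0237).

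Within several families, the member gene and its close relative differed in their values in Apc. Sar1b was called lower (-1.05) while Sar1a was at 0.19, and Soat2 was called lower (-2.87) while Soat1 was at 0.39. Gpat3 (-4.38) and Gpam (-1.06) were called lower, and Gpat4 was at 0.63. Among carriers, Fabp5, common in many epithelia, was at -0.40 (adjusted p = 0.0861 by edgeR) beside -10.46 for Fabp1. Among transport proteins, Slc27a5 was called lower (-3.45) like Slc27a2 and Slc27a4, Slc27a1 was at 0.41, and Slc27a3 was called higher. Sar1a, Soat1, Gpat4 and Slc27a1 passed the p threshold but not the fold threshold. The difference between relatives was not itself tested.

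**Figure D4:**
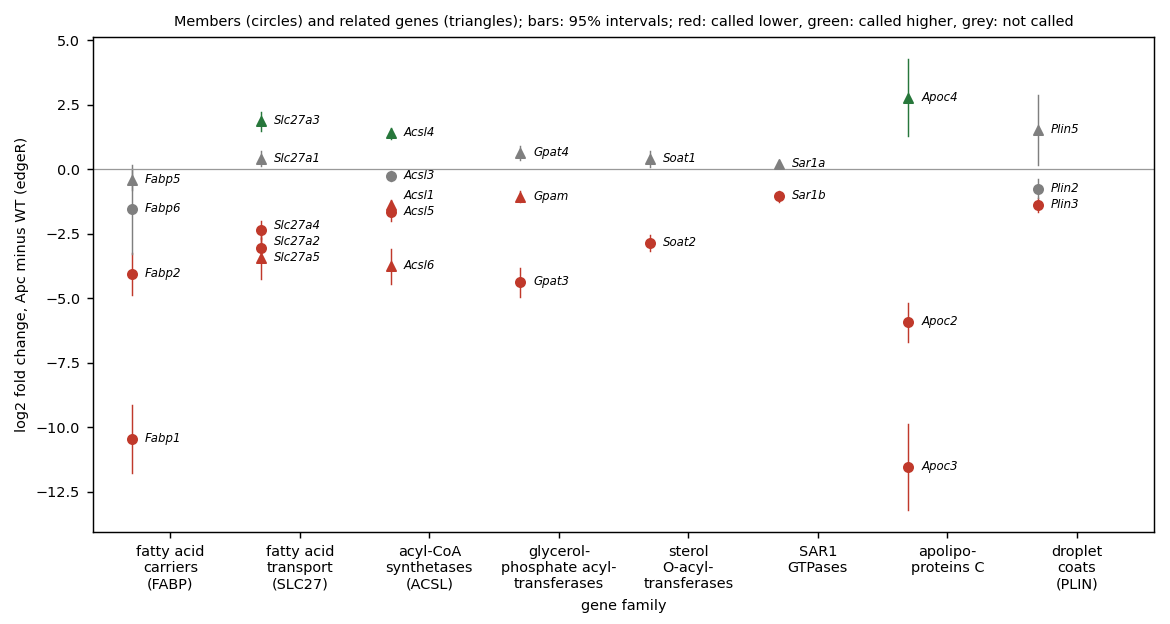
Log2 fold change in Apc minus WT with 95% intervals (edgeR) for members (circles) and their relatives (triangles) in 8 gene families; red marks genes called lower, green called higher, grey not called. In the SLC27, ACSL and apolipoprotein C families, genes called lower and genes called higher occur together. The fitted Apoc3 value rests on 0 to 3 counts per Apc library, for which the level was at least 2110-fold lower (1710-fold without WT library 5).

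Among transcription factors known to act on these genes, Hnf4g went from 92.6 to 9.38 FPKM on average in Apc, with an adjusted p of 1.49e-09 by edgeR. Its paralogue Hnf4a had a log2 fold change of -1.27 and was still at 155 FPKM. The bile acid receptor Nr1h4 was also called lower (-3.24). Pparg (-0.97), Gata4 (-0.59) and Srebf1 (-0.18) passed the p threshold only, as did Srebf2 in the other direction (0.32). Cdx2 (-0.17) and Ppard (-0.11) passed neither. In P-Rspo3 against WT none of these regulators was called, with Hnf4a at -0.07, Hnf4g at 0.07 and Ppara at -0.12.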

How the data were processed

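RNA-seq of 15 organoid samples was analysed from gene counts and FPKM values deposited by the authors, who aligned reads of polyA RNA with STAR (GRCm38) and used HTSeq 0.6.0 for the gene counts and Cufflinks 2.2.1 for FPKM. The annotation release and strand setting are not given in the sources used here. Groups came from the genotype labels: 5 WT, 4 Apc and 4 P-Rspo3, with 2 samples unassigned. No 2 libraries were alike enough to be 1 library deposited again. The deposited counts were tested in R 4.3.3 with edgeR 4.0.16 (TMM, glmQLFit, glmQLFTest), with Benjamini-Hochberg adjustment over all genes that reached 0.1 FPKM in 4 or more of the compared libraries. Thresholds for a call were 0.05 (adjusted p) and 1 (size of the log2 fold change), and intervals are 95%. On simulated counts for Apc against WT, 194 of 200 genes changed by a log2 fold of 2 were recovered with 7 false calls among 16749. Depth was 28902729 to 35528495 counts per grouped library; for genes at or under 3 counts, folds are bounds that cover counting error only.

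Alternatives comprised DESeq2 1.42.0, limma 3.58.1 on log2(FPKM + 1) and log2(FPKM + 0.1), other scalings and filters, a block for the library number, placing the unassigned libraries by genotype label, and leaving out each library. The members, gene lists and comparisons were chosen with earlier results of these data known. All 34 members are accounted for. Log2 fold changes or bounds are given for members among the 10 largest log2 fold changes of a comparison, members moving against the majority, and the first gene of each role. Standard errors, intervals or adjusted p are given for only some of these. Other lipid genes are named where called against the majority, among the 6 largest, or regulators (1 listed regulator and 1 motif are not reported here); the family relatives were named after their values were seen. Positions are from GENCODE M21 and promoter stretches from RefSeq, shortened where they ran more than 30 bases into a GENCODE gene.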

Additional observations from a re-analysis of the deposited data

Results flagged for a closer look

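Library by library, 3 of 98 member groups held 1 value far from the others of its group, where chance gives about 1 in 20, or 4.9. Scarb1 was at 88.8 FPKM in WT library 5 beside 45.6 to 57.3 in the other WT libraries. Slc27a4 was at 47.6 FPKM in P-Rspo3 EN_F beside 28.1 to 31.3. Pnpla2 was at 67.5 FPKM in Apc library 5 beside 57.8 to 59.4.

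The 2 libraries without a group were set beside the WT range as single values. In LIPO, 6 of 33 members lay above the highest WT library: Apob at 151 FPKM (WT up to 140), Apobec1 at 10.3 (9.39), Slc27a2 at 49.9 (45.7), Fabp2 at 687 (610), Fabp6 at 0.548 (0.417) and Mgll at 0.467 (0.425). In NAIVE_F, 2 of 32 did so, Slc27a2 at 48.0 FPKM and Mgll at 0.446. The share of all genes above the WT range was not counted for either library, so nothing particular to the members follows from these counts. The members' summed FPKM was 8340 in LIPO, within the WT range (4707 to 12220). In NAIVE_F it was 7050, within both the WT range and the P-Rspo3 range (3579 to 7261). NAIVE_F carries a P-Rspo3 genotype label, was grown in EN medium and had 729 Rspo3 counts.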

How the results depend on the processing

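Between 27 and 31 members were called lower in Apc than in WT over 20 alternatives (29 to 30 when each library was left out), between 24 and 30 in Apc against P-Rspo3 over 18 (28 to 29), and 0 in P-Rspo3 against WT over 19. No called member changed sign; among members not called, 8 had estimates of both signs in P-Rspo3 against WT (Fabp6 from -1.07 to 1.24, Apob, Apobec1, Fabp2, Sar1b, Acsl5, Dgat2 and Gpat3) and 1, Acsl3, in Apc against P-Rspo3. With adjusted p alone as the threshold, 1 member, Pnpla2, was called higher in Apc in both comparisons. WT and Apc libraries share the numbers 1, 2, 5 and 6 in their titles. Their deviations from the group means correlated over 0.1 in 2 of 4 equal-numbered pairs, and 3 of 4 Apc libraries correlated best with their own number, so pairing was not established. The number as a replicate block gave 29 lower and 0 higher and changed no call. Under both limma fits on FPKM, which shift the median of all genes by 0.17 and 0.28 in Apc against WT, Sar1b (-0.75 and -0.76) and Mgll (-0.25 and -0.97) were no longer called; in Apc against P-Rspo3 the same held for P4hb, Plin3, Scarb1 and Mgll. Fabp6 was called (-1.86) without WT replicate 2, and Sar1b in Apc against P-Rspo3 without Apc replicate 5, P-Rspo3 EN15d or EN4d, or with the unassigned libraries placed (-1.01 to -1.10). The Apoa1 log2 fold change in P-Rspo3 against WT was -0.85 without WT library 5 and -1.38 without WT library 6, with adjusted p of 0.0743 (DESeq2) to 0.460 over the alternatives. DESeq2 called 1 other lipid gene lower in P-Rspo3 against WT. Over all genes, that comparison's 1 call became 55 higher and 173 lower with DESeq2, and 166 and 100 without the dox naive library. Causes were not tested. Apoa5 and Fabp6, with few counts in every library, give little precision.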
